A study of Mus musculus with 6 samples.

Results

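The genes described here are 10 members of the Notch pathway: the receptor genes Notch1, Notch2 and Notch4, the ligand genes Jag1, Jag2, Dll1 and Dll4, and the target genes Hes1, Hey1 and Heyl. They were picked from the table by gene symbol, by a rule that uses no measured value. Earlier results of these data were known when they were chosen. The count table of 24348 genes held all 10. All 10 passed the filter of at least 10 counts in at least 3 libraries, which kept 19925 genes for testing. Total RNA was sequenced from fibroblasts sorted out of the synovium, which lines the joint cavity, in wild-type C57BL/6 mice. Of the 6 libraries, 3 came from mice treated with immune complexes (IC) and 3 from mice given vehicle, whose treatment label reads Control. By the study's methods, its IC were ovalbumin bound by a rabbit polyclonal anti-ovalbumin antibody and were injected into the tail vein, its mice were adults, and each of its experiments used males and females. The labels give no age, sex or time after injection, and they do not say whether a library came from 1 mouse, so p-values measure only the spread between these libraries, which may be technical. The comparison asks whether expression in the fibroblasts differed after systemic IC.

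Notch receptors are proteins of the cell surface that are activated by ligands on a neighbouring cell. Binding of a Jagged or Delta-like ligand exposes the receptor to cutting, first by an ADAM metalloprotease and then by gamma-secretase, and the freed intracellular part enters the nucleus, where it joins the DNA-binding protein RBPJ and switches on target genes of the Hes and Hey families. In the synovium, Notch signalling is known for passing from endothelial cells to the mural cells and fibroblasts that surround small vessels.

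Promoter windows, from 250 bases before to 50 bases after a start site, were taken from RefSeq (GRCm38.p6) and were found for 7 of the 10 members, with 8 windows in all. Hes1, Hey1 and Heyl had no entry. The hexamer CACGCG, a class C site that Hes and Hey proteins are known to bind, was searched for on both strands, where the other strand reads CGCGTG, and it was present in 5 of the 8 member windows, against 9.27% of all 32851 windows. Those 5 windows belong to Jag1, Jag2, Dll1, Dll4 and Notch2. The member windows were also richer in G and C, with a median of 63.2% (range 55.7% to 86.0%) against a median of 52.7% over all windows. The parts of the windows that lie before the annotated gene start are shown for Jag1, the ligand gene with the highest level, for Notch2, the receptor gene with the highest level, and for Dll4, with the hexamer in capitals on either strand.
Jag1, chr2:137116645-137116770, minus strand: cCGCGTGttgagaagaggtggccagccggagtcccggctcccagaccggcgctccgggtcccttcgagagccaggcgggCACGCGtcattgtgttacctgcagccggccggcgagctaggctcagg
Notch2, chr3:98013288-98013526, plus strand: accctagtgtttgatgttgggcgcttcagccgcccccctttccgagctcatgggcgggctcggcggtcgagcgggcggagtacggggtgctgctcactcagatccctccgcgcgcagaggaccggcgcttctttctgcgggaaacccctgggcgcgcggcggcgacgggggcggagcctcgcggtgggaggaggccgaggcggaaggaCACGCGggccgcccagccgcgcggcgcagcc
Dll4, chr2:119325534-119325783, plus strand: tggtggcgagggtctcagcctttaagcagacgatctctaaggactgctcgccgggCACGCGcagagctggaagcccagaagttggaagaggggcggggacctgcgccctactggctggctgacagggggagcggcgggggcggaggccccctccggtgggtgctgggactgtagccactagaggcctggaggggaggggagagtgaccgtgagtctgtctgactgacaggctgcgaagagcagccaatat
Counted from the RefSeq start site, the hexamers began at position −249 and at position −171 in Jag1, at position −42 in Notch2 and at position −195 in Dll4. Dll1 held it at position −68, and Jag2 at position 18. The RBPJ core TGGGAA, which reads TTCCCA on the other strand, was present in 0 of the 8 member windows and in 25.6% of all windows, which says only that these letters are not in these windows. A match of letters is a description of the window and no measurement of binding.

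Total counts were 40114331 to 56714304 per library and overlapped between the groups. All 12 fibroblast markers were present, from 5242 normalized counts (counts divided by the library's size factor) for Thy1 in its lowest library upwards. Col1a1, a chain of type I collagen, had 607185 to 803847 normalized counts and Pdgfra, a receptor of fibroblasts, had 43198 to 54238. DESeq2 called 1 of the 12 higher after IC, Prg4, the lubricin of the synovial lining (log2 fold change 0.94, adjusted p 0.0103). It called 3 lower, Col3a1 (−0.38, adjusted p 0.00679), Lum (−0.36, 0.0025) and Fn1 (−0.34, 0.0494), and edgeR called 0 of the 12. Over all tested genes DESeq2 called 2.10%. By sign 9 of the 12 were lower after IC and 3 higher, with a median log2 fold change of −0.162. The fibroblast markers summed to 2505861 to 2688528 after IC and 2533593 to 3288447 after vehicle. Markers of other cells were also present, with lower sums. The 18 endothelial markers summed to 13543 to 17815 normalized counts after IC and 17416 to 19926 after vehicle, the 11 mural cell markers in the table to 37232 to 41155 and 36174 to 39827, and the 12 muscle and satellite cell markers to 2506 to 5027 and 5658 to 9911. In the mural sum Pdgfrb alone had 21636 to 21788 after IC and 18814 to 21371 after vehicle. In the endothelial sum Tek alone had 5828 to 6699 and 6274 to 6897. Which cells these counts came from was not tested. Of the leukocyte markers 4 of 10 were in the table. The 3 of these that were tested summed to 1130 to 1683 after IC and 1277 to 1459 after vehicle, of which Cd68 had 1061 to 1506 and 1113 to 1332.

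No member of the group passed the test. Across all tested genes DESeq2 called 419, or 2.10%, at an adjusted p under 0.05, and 0 of the 10 members were among them. By the quasi-likelihood test of edgeR 37 genes were called (0.186%), by limma-voom 62, and 0 members by either, although 1920 and 2050 genes had an unadjusted p under 0.05 there. At an unadjusted p under 0.05 all 3 tests took the same 2 members, Hey1 and Heyl, both with lower values after IC, against 9.80% of all tested genes with DESeq2. By sign, 4 members were higher and 6 lower after IC, with a median log2 fold change of −0.05 against −0.002 over all tested genes. In this bulk measurement, fewer cells of a type and less RNA per cell cannot be told apart.

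**Figure D1:**
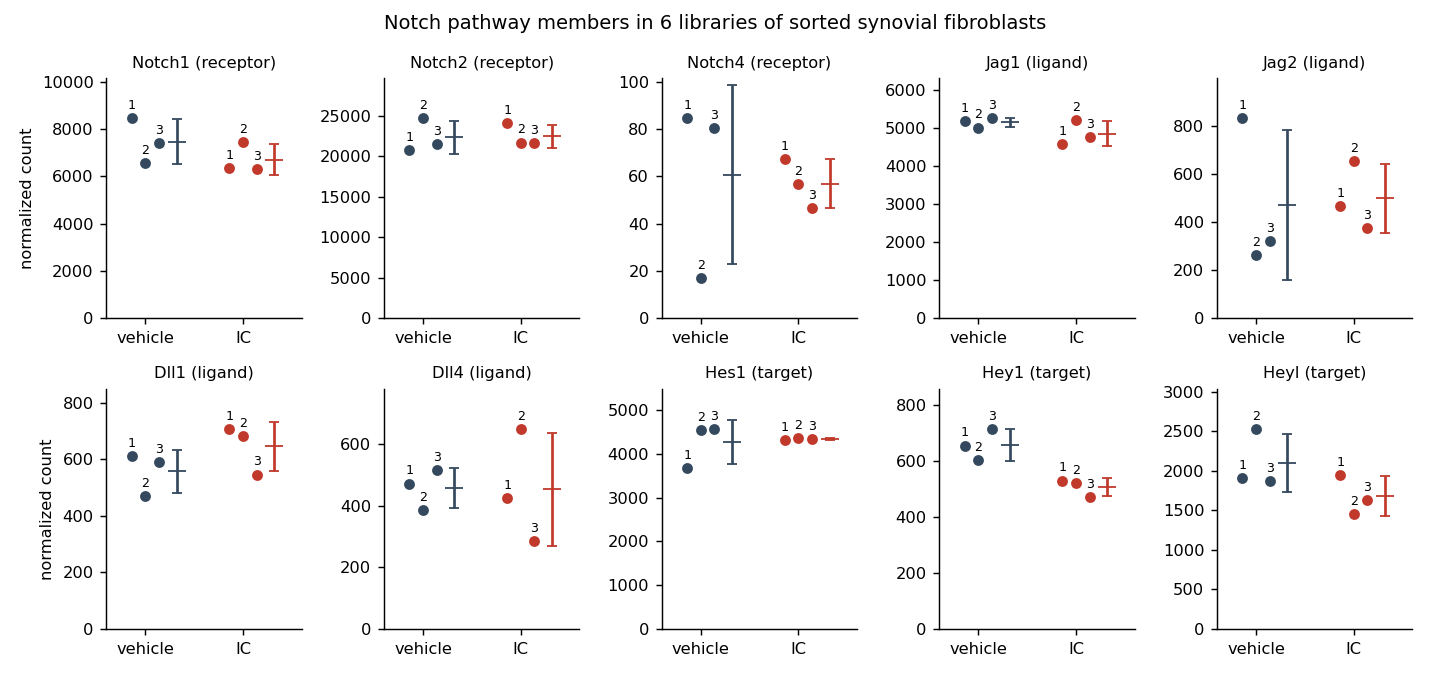
Normalized count (count divided by the DESeq2 size factor, linear axis from 0) of each of the 10 members, with 1 numbered point per library and, beside the points, a bar for the mean and SD of the 3 vehicle and 3 IC libraries. Hey1 is the member whose groups lie apart, with IC at 470.5 to 530.0 and vehicle at 601.7 to 713.7.

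Compared per length of transcript, the members spanned a wide range of levels. In TPM (counts per exon length, scaled to the same total in each library), Hes1 had a mean of 189 over the 6 libraries (164 to 198) and Notch2 a mean of 186 (175 to 202), and these neighbours did not differ beyond their spread, with Hes1 above Notch2 in 3 of 6 libraries. Jag1 followed with 77 TPM (71.2 to 82.1), and its range lay apart from those of Notch2 above and Notch1 below it. Notch1 had 44.7 TPM (39.2 to 54.0) and Heyl 33.1 TPM (26.0 to 43.4), with overlapping ranges and Notch1 above Heyl in 5 of 6 libraries. Hey1 lay below Heyl in all 6 libraries, with no overlap of their ranges, and from Hey1 to Jag2 each range overlapped the next. Hey1 had 16.0 TPM (12.8 to 19.3), Dll1 12.8 TPM (9.76 to 15.2), Dll4 10.6 TPM (6.56 to 15.4) and Jag2 6.27 TPM (3.32 to 10.8), and of these neighbours only Dll4 and Jag2 kept their order in all 6 libraries. Notch4 was lowest at 0.655 TPM (0.185 to 0.953), apart from Jag2.

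**Figure D2:**
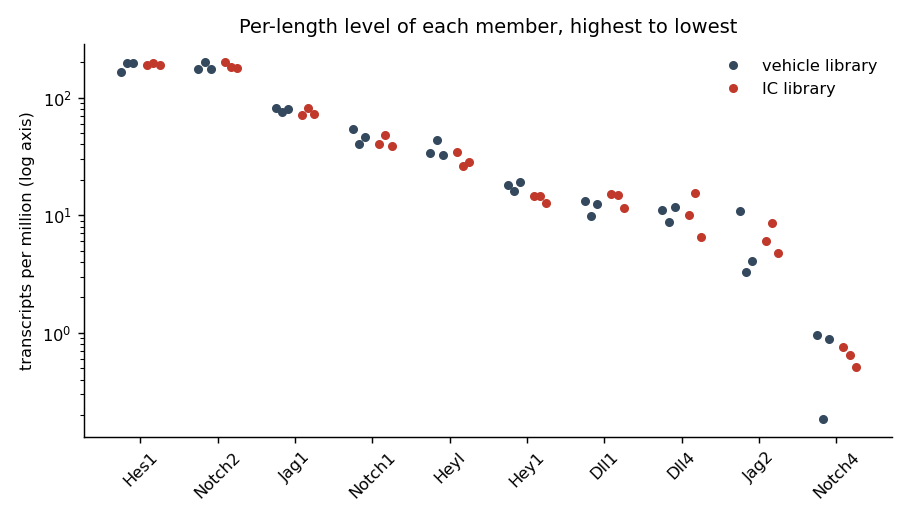
Level of each member in TPM (counts per exon length, scaled to the same total in each library) on a log axis, ordered from the highest mean to the lowest, with 1 point per library (vehicle and IC in separate colours). Hes1 and Notch2 share the top, with means of 189 and 186, and Notch4 lies at the bottom with a mean of 0.655.

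Among the ligands, Jag1 was the most abundant and the steadiest, and none of the 4 differed between groups by more than the spread between libraries. The ratio of the highest to the lowest library was 1.15 for Jag1, 1.51 for Dll1, 2.28 for Dll4 and 3.15 for Jag2. Jag1 (chromosome 2, 137081456 to 137116644, minus strand, GRCm38), which encodes the membrane-bound ligand Jagged1, had 4587, 5222 and 4772 normalized counts in IC replicates 1, 2 and 3 and 5189, 5019 and 5259 in vehicle replicates 1, 2 and 3. The groups overlapped through IC replicate 2. The means were 4860 ± 326 and 5156 ± 124 (SD, n = 3 each). The log2 fold change was −0.08 with standard error (SE) 0.0853, and DESeq2 gave an adjusted p of 0.845. The 95% interval of −0.25 to 0.08 leaves out a difference as large as 1.5-fold either way.

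Jag2 (chromosome 12, 112907819 to 112929776, minus strand), the other Jagged ligand, had 465.0, 654.3 and 374.6 normalized counts after IC and 829.8, 263.5 and 319.8 after vehicle. Vehicle replicate 1 was the highest of all 6 libraries and the other 2 vehicle libraries were the lowest, so the vehicle group spanned the IC group. The log2 fold change was 0.08 (SE 0.563), with a 95% interval of −1.02 to 1.18 and a DESeq2 adjusted p of 0.989. Vehicle replicate 1 decided this value: without it the log2 fold change was 0.77 with an adjusted p of 0.0916, still not called.

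The Delta-like ligands were lower in count than Jag1. Dll1 (chromosome 17, 15367354 to 15376872, minus strand) had 707.4, 683.2 and 546.6 normalized counts after IC and 611.7, 469.5 and 592.1 after vehicle. IC replicates 1 and 2 were the highest of the 6 libraries and IC replicate 3 lay among the vehicle values. Its log2 fold change of 0.21 (SE 0.177, 95% interval −0.14 to 0.56) had an adjusted p of 0.776. An antisense gene, A930024N18Rik, shares 867 exon bases with Dll1, and whether counting used strand is not given in the sources used here, so reads from that stretch are uncertain.

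Dll4 (chromosome 2, 119325784 to 119335962, plus strand), a ligand known from sprouting endothelium, had 426.4, 649.1 and 285.0 normalized counts after IC and 472.3, 387.3 and 515.5 after vehicle. The IC libraries held the highest and the lowest value, and the vehicle libraries lay between them. Its log2 fold change was −0.02 (SE 0.258, 95% interval −0.52 to 0.49), with an adjusted p of 0.997. An antisense gene, Gm14207, overlaps 214 of its exon bases, with a mean of 4.502 normalized counts after IC and 16.51 after vehicle.

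Jag1 held 71.2% ± 4.35 of the summed TPM of the 4 ligands after IC, against 73.7% ± 3.9 in the vehicle group (SD, n = 3 each). This difference of −2.5 percentage points had p = 0.5 in a two-sided exact permutation test over the 6 libraries, in which the smallest p possible with 3 against 3 is 0.1. It was −0.613 without vehicle replicate 2 and −5.0 without IC replicate 3. Dll1 came next in mean share, with 13.0% ± 1.54 and 10.9% ± 0.81. Jag2 varied from 3.41% to 9.33%, and the highest of these was vehicle replicate 1.

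Among the receptors, Notch2 was the most abundant and its mean was nearly equal in the groups. Notch2 (chromosome 3, 98013527 to 98150361, plus strand) had 24073, 21692 and 21594 normalized counts after IC and 20810, 24670 and 21524 after vehicle. The highest and the lowest library were both vehicle. The means were 22453.1 ± 1403.6 and 22334.6 ± 2053.5 (SD, n = 3 each), and the log2 fold change was 0.01 (SE 0.086, 95% interval −0.16 to 0.18), with an adjusted p of 0.995 by DESeq2. A gene model on the same strand, Gm42820, shares 541 of its exon bases and had 475.6 and 395.2 mean normalized counts.

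Notch1 (chromosome 2, 26457903 to 26516663, minus strand), the most widely studied of the receptors, had 6365, 7460 and 6295 normalized counts after IC and 8456, 6578 and 7399 after vehicle. IC replicates 1 and 3 were below all vehicle libraries, and IC replicate 2 was above 2 of them. The log2 fold change was −0.16 (SE 0.106, 95% interval −0.36 to 0.05), with an adjusted p of 0.665. The antisense genes 0610009E02Rik and Gm13568 share 1068 and 414 exon bases with it, and 0610009E02Rik had 85.72 and 66.82 mean normalized counts after IC and vehicle.

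Notch4 (chromosome 17, 34564268 to 34588503, plus strand), a receptor best known from endothelial cells, was the least abundant member. It had 67.22, 56.85 and 46.6 normalized counts after IC and 84.45, 17 and 80.25 after vehicle. Vehicle replicate 2 was the lowest library and the other 2 vehicle libraries were the highest, so the vehicle values enclosed the IC values. The log2 fold change was −0.09 (SE 0.577) with a 95% interval of −1.22 to 1.04 and an adjusted p of 0.988, so these libraries do not leave out a 2-fold difference.

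Of the summed TPM of these 3 receptors, Notch2 held 83.1%, 79.1% and 81.7% after IC and 76.1%, 83.1% and 79.0% after vehicle. The means of 81.3% ± 2.01 and 79.4% ± 3.51 (SD, n = 3 each) differed by 1.9 points, with p = 0.5 in the two-sided exact permutation test. The difference was 0.215 points without vehicle replicate 1 and 3.71 without vehicle replicate 2. The remaining receptor gene, Notch3, a receptor known from mural cells, was not a member and had a mean of 124 TPM. With Notch3 added to the sum, a choice made after its values were seen, Notch2 held 55.2%, 54.3% and 54.7% after IC and 49.6%, 51.9% and 48.7% after vehicle. These values did not overlap, and their difference of 4.7 points had the smallest p that the exact permutation test can give, 0.1, which cannot pass the threshold.

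**Figure D3:**
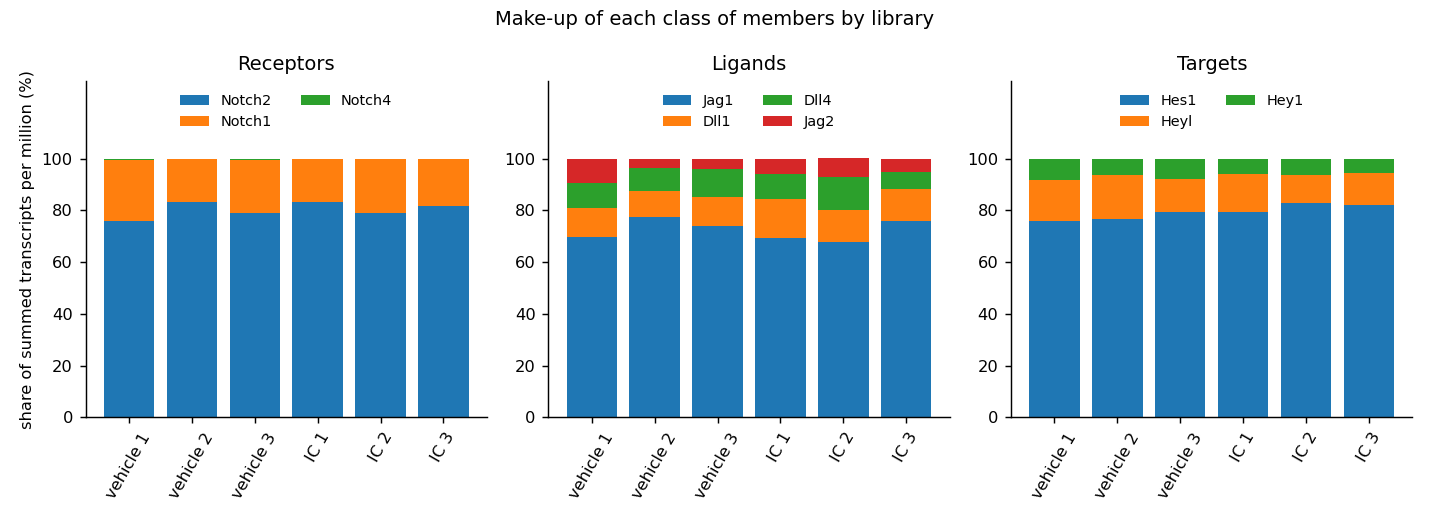
Share of each member in the summed TPM of its class (receptors, ligands, targets), as a percentage on an axis from 0, with 1 stacked bar per library. Notch2, Jag1 and Hes1 hold the largest part of their class in every library, from 67.9% for Jag1 in IC replicate 2 to 83.1% for Notch2 in IC replicate 1 and vehicle replicate 2.

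None of the 3 targets passed the test. Hes1 had nearly the same mean in both groups, and the means of Hey1 and Heyl were lower after IC. The targets were compared with each other only through the Hes1 share, by an exact permutation test. The smallest p this test can give is 0.1, so it could not pass the threshold. Hes1 (chromosome 16, 30064384 to 30067796, plus strand), a transcriptional repressor that other pathways can also induce, had 4312, 4366 and 4332 normalized counts after IC and 3684, 4547 and 4564 after vehicle. The IC libraries lay within a narrow band between the lowest and the other vehicle libraries. The means were 4337 ± 27.3 and 4265 ± 503 (SD, n = 3 each), with a log2 fold change of 0.02 (SE 0.1, 95% interval −0.17 to 0.22) and an adjusted p of 0.980.

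Hey1 (chromosome 3, 8663359 to 8667256, minus strand), a related repressor, had 530.0, 522.0 and 470.5 normalized counts after IC and 655.1, 601.7 and 713.7 after vehicle. All 3 IC libraries lay below all 3 vehicle libraries, as they did for 1529 of the tested genes, or 7.67%, with 8.09% the other way. Hey1 was the 1 member of 10 with groups apart. The means were 507.5 ± 32.3 and 656.9 ± 56.0 (SD, n = 3 each), a ratio of 0.773. The log2 fold change of −0.37 (SE 0.159, 95% interval −0.68 to −0.06) had an unadjusted p of 0.0195 by DESeq2, rank 1203 of 19925 genes, and an adjusted p of 0.273. With edgeR the adjusted p was 0.365 and with limma-voom 0.362, so the difference did not pass the correction in any of these.

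Heyl (chromosome 4, 123233556 to 123249875, plus strand), the third Hey family gene, had 1953, 1452 and 1632 normalized counts after IC and 1915, 2529 and 1871 after vehicle. IC replicate 1 was above vehicle replicates 1 and 3, so the groups overlapped, and vehicle replicate 2 was the highest. The log2 fold change was −0.33 (SE 0.145, 95% interval −0.61 to −0.04), with an unadjusted p of 0.0241 and, after adjustment by DESeq2, an adjusted p of 0.306. Over all alternatives it ran from −0.45 to −0.13, and that of Hey1 from −0.43 to −0.31.

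Hes1 held 79.5%, 82.8% and 82.1% of the summed TPM of the 3 targets after IC and 75.9%, 76.7% and 79.3% after vehicle. Every IC value was above every vehicle value. The means of 81.5% ± 1.73 and 77.3% ± 1.8 (SD, n = 3 each) differed by 4.2 points, with p = 0.1 in the two-sided exact permutation test, the smallest it allows, which cannot pass the threshold. As shares of raw counts the difference was 5.89 points with an exact permutation p of 0.2, so the groups overlapped there. Heyl held 12.6% ± 1.7 and 15.2% ± 2.06, and Hey1 5.95% ± 0.335 and 7.5% ± 1.06.

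**Figure D4:**
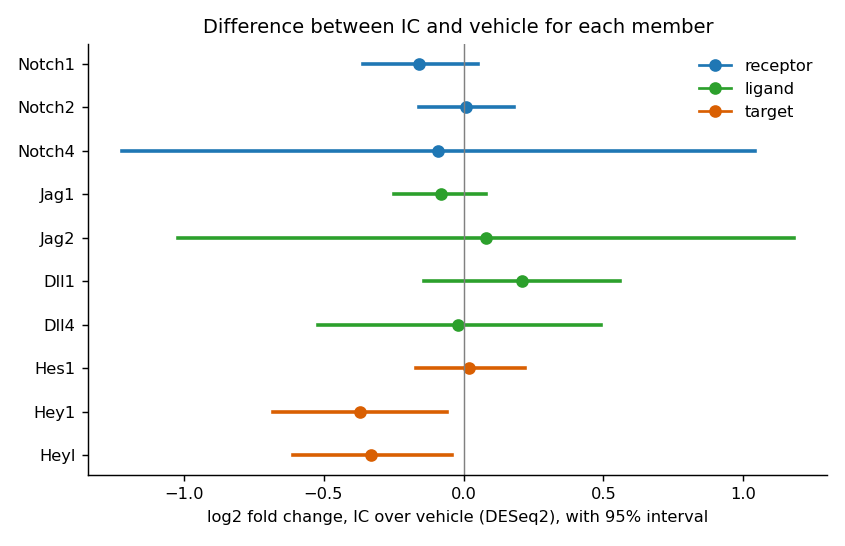
Log2 fold change, IC over vehicle, of each member from DESeq2, with 95% intervals and with receptors, ligands and targets in separate colours. The intervals of Hey1 (−0.68 to −0.06) and Heyl (−0.61 to −0.04) lie below 0 before correction, and those of Notch4 and Jag2 are the widest.

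Endothelial, mural and muscle satellite cells also use Notch genes, and some of their markers moved with the treatment. The muscle and satellite cell list had the lowest median of these lists, a log2 fold change of −1.711 over 12 tested markers, all 12 lower by sign, 3 called lower by DESeq2 and 0 by edgeR. Pax7, the factor that marks satellite cells, had 651.2, 314.2 and 135.3 normalized counts after IC and 1210, 1724 and 717.4 after vehicle (log2 fold change −1.73, adjusted p 0.206), and every IC library was below every vehicle library. Kdr, the main VEGF receptor of endothelium, fell by 0.70 on the log2 scale, with 1631, 1264 and 1264 normalized counts after IC and 2424, 2001 and 2342 after vehicle (adjusted p = 3.45e-05 by DESeq2, 0.0537 by edgeR). Of the 18 endothelial markers tested 3 were called lower, 0 higher, and their median log2 fold change was −0.389. By sign 14 were lower after IC and 4 higher. The groups lay apart for 6 with IC below and for 1 with IC above, Ackr1 (log2 fold change 0.34, adjusted p 0.163 by DESeq2). Of 7 arterial endothelial markers DESeq2 called 1, Efnb2, lower after IC (log2 fold change −0.34, adjusted p 0.0161), and edgeR 0. Gja4 had −1.09 (adjusted p 0.0581 by DESeq2). In this list 5 were lower by sign and 2 higher, Sox17 and Sema3g, and the groups lay apart for 3 with IC below and 0 with IC above. Of the 11 mural markers 1 was called, Myh11, the myosin of smooth muscle (log2 fold change −0.96, adjusted p 0.0131 by DESeq2). It had 698.6, 320.4 and 293.0 after IC and 834.7, 942.7 and 778.2 after vehicle. Cspg4 (0.08) and Rgs5 (−0.71) had adjusted p of 0.838 and 0.835. Over the 11 the median log2 fold change was −0.186, with 7 lower and 4 higher by sign. Besides Myh11, the groups lay apart for 2, both with IC above and not called, Ndufa4l2 (0.19) and Pdgfrb (0.10). Marker scores were the scaled mean of log2 normalized counts over a list, with all its markers weighted alike. In the endothelial score the uneven Selp (74.93, 225.3 and 0.0 after IC, 7.38, 19.84 and 12.16 after vehicle) therefore counted as much as Kdr. With the endothelial marker score as a term in DESeq2, the log2 fold change of Hey1 was −0.34 and that of Heyl −0.34. With a mural marker score it was −0.32 for Hey1 and −0.13 for Heyl. The mural score gave equal weight to the uneven Cnn1 (19.83, 11.37 and 2.688 after IC, 9.019, 48.17 and 32.83 after vehicle). With no score, leaving out 1 library gave −0.45 to −0.17 for Heyl, the −0.17 without vehicle replicate 2, and −0.43 to −0.31 for Hey1. The part of these cells in the values of the members was not tested.

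The genes whose pattern over the 6 libraries was most like that of Hey1 were Gpr27 (Pearson r = 0.9929 of log2 normalized counts), Prxl2a (0.9923), Enpp2 (0.986), Pik3ca (0.9854) and Ubr3 (0.9849), out of 13435 genes with a mean of at least 100. The 6 points share their libraries and size factors, and 151 genes had r above 0.9, so this is a description of likeness. Because the groups of Hey1 lay apart, lower values after IC in these 5 genes follow from how they were picked. Of these 5 genes DESeq2 called 1, against 2.95% of the 13435 genes. Picking genes for likeness to Hey1 also favours separated groups, so these shares cannot be compared. The called gene was Enpp2, which encodes autotaxin, the secreted enzyme that makes lysophosphatidic acid. It had 8290.9, 8333.9 and 6862.4 normalized counts after IC and 10092.7, 9563.0 and 11271.4 after vehicle (log2 fold change −0.40, adjusted p 0.00448).

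The wider pathway held 84 genes in 9 lists by role, of which 82 were tested. DESeq2 called 0 higher and 2 lower (2.44%, against 2.10% of all tested genes), and the median log2 fold change of the 82 was −0.031. By sign 61.0% of them were lower after IC, against 50.4% of all tested genes. The groups lay apart for 12 of the 82 genes with IC below and for 3 with IC above, against 7.67% and 8.09% of all tested genes.

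The called genes act at the cutting of the receptor and in its turnover. Adam10, the metalloprotease that cuts ligand-bound receptors and many other surface proteins, had 3658, 3497 and 3776 normalized counts after IC and 4387, 4380 and 4611 after vehicle. It fell by 0.29 on the log2 scale (SE 0.0838, adjusted p 0.0266 by DESeq2 and 0.147 by edgeR), with all IC libraries below all vehicle libraries. Its call was lost without IC replicate 1 (adjusted p 0.0809), without IC replicate 2 (0.148) and without vehicle replicate 3 (0.144), and held without any other. Dtx4, of the Deltex family of ubiquitin ligases that act on Notch receptors, had 5667, 4954 and 5006 against 6037, 7759 and 6438. It fell by 0.37 (SE 0.106, adjusted p 0.0223 by DESeq2 and 0.192 by edgeR), and the call held only when IC replicate 1 (0.0225) or vehicle replicate 1 (0.00247) was the library left out. It was lost without each of the others, at 0.200 and 0.154 for IC replicates 2 and 3 and at 0.213 and 0.105 for vehicle replicates 2 and 3. With the mural marker score as a term, a fit that called 54 genes in all, the log2 fold change was −0.30 for Adam10 (adjusted p 0.570) and −0.23 for Dtx4 (adjusted p 1.0). With the endothelial marker score both stayed called by DESeq2, Adam10 at −0.31 (adjusted p 0.0145) and Dtx4 at −0.37 (0.035). With 1 surrogate variable Adam10 was called (−0.30, adjusted p 0.0462) and Dtx4 was not (−0.27, 0.113).

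In the other 7 lists DESeq2 called 0 genes. Notch3 had 10963, 9401 and 9788 normalized counts after IC and 10983, 13402 and 12741 after vehicle, all IC libraries below all vehicle libraries. Its log2 fold change of −0.30 (SE 0.0947) had an adjusted p of 0.0559. Notch3 was called only when IC replicate 1 (0.0310) or vehicle replicate 1 (0.00122) was the library left out. The adjusted p was 0.345 and 0.24 without IC replicates 2 and 3, and 0.367 and 0.365 without vehicle replicates 2 and 3. With total-count scaling the adjusted p was 0.0341 and with TMM 0.048, so these settings called Notch3, while edgeR gave 0.266 and limma-voom 0.218. With the mural marker score as a term its log2 fold change was −0.17 (adjusted p 1.0). It was −0.30 with the endothelial score (adjusted p 0.0694 by DESeq2) and −0.24 with 1 surrogate variable (0.241). The median log2 fold change was −0.124 for the 4 receptors, 0.079 for the 7 tested ligands and −0.372 for the 7 tested targets, of which Hey2 had −0.66 (adjusted p 0.561). It was −0.12 for the 17 nuclear corepressors, of which 13 were lower by sign, and 0.013 for the 9 nuclear activators, where Rbpj had 11331, 11064 and 11456 after IC and 9943, 10282 and 10057 after vehicle (log2 fold change 0.16, adjusted p 0.285). For ligand endocytosis, glycosylation, proteolysis and receptor turnover the medians were −0.042, −0.02, −0.015 and −0.02. Genes with the highest level per length in their list included Nedd4, a ubiquitin ligase, at 453 TPM, Epn1, an endocytic adaptor, at 131 TPM, and Ncstn, a subunit of gamma-secretase, at 128 TPM. The highest in glycosylation was Gxylt2 at 74.7 TPM and among nuclear activators Kat2b, an acetyltransferase, at 96.3 TPM.

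**Figure D5:**
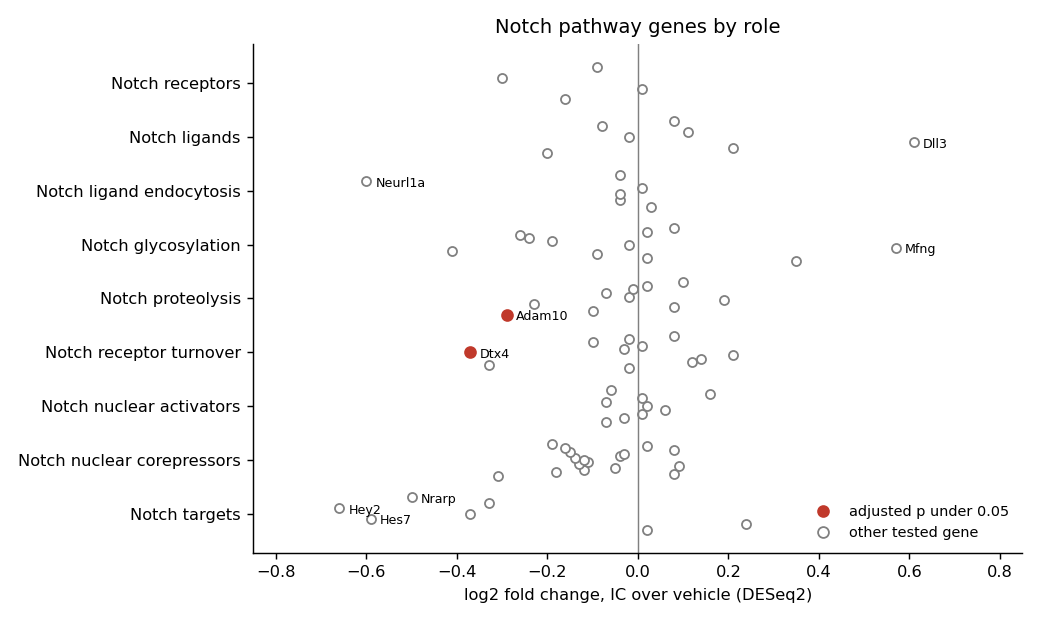
Log2 fold change, IC over vehicle (DESeq2), of the 82 tested pathway genes in 9 rows by role, with 1 point per gene, spread vertically within its row for legibility. Filled points are the 2 called genes, Adam10 (−0.29) and Dtx4 (−0.37), and named open points are the 6 uncalled genes with the largest differences.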

How the data were processed

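Total RNA of synovial fibroblasts was sequenced in 3 IC and 3 vehicle libraries, with groups and replicate numbers from the labels. What was deposited is a table of raw counts per gene. The authors made them with Trim Galore, HISAT2 on mm10 and featureCounts. Versions, annotation and strand setting are not given in the sources used here, the library kit differs between the labels and the methods of the study, which also name sva without a step. Total counts ranged from 40114331 to 56714304. A gene was tested where 3 or more libraries had 10 or more counts. DESeq2 (version 1.42.0, Wald test, treatment as the only term) gave p-values for 19925 genes. Benjamini-Hochberg adjustment followed its default independent filtering, which with the outlier cutoff left 3870 of them without an adjusted p. Log2 fold changes are unshrunken. Levels per length used GENCODE M21 exon lengths (98.1% of symbols matched). Shares of each class were compared by exact permutation.

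The members and lists were chosen with earlier results of these data known. All members were named, with pathway genes called by DESeq2 or highest in level per list (1 of them is not reported here), chosen cell type markers, and the 5 genes most like a member whose groups lay apart. Notch3, Rbpj, Hey2 and the 6 names added in the plot of pathway genes were chosen after their values were seen. Alternatives were edgeR (4.0.16), limma-voom (limma 3.58.1), scaling by TMM or by total counts, the count filter or independent filtering off, 1 surrogate variable (sva 3.50.0), marker scores, a replicate block and each library left out. The fits were tested on simulated data.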

Additional observations from a re-analysis of the deposited data

How the results depend on the processing

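With 3 libraries per group, differences of low or variable members such as Notch4 and Jag2 could not be measured closely. Members called numbered 0 in every alternative with adjusted p, and 2 at an unadjusted p under 0.05, a threshold added after seeing the data. Over all genes edgeR called 37, limma-voom 62 and the mural score fit 54, the unadjusted threshold took 1952, and leaving out 1 library gave 282 to 671, the most without vehicle replicate 1. The cause was not tested. Libraries with the same replicate number showed no clear shared deviation (correlations of deviations −0.0918, −0.164 and 0.025 over 13435 genes). This does not settle whether they were prepared together. The replicate block gave 320 genes and 0 members. It left the calls of Adam10 and Dtx4 at adjusted p of 0.139 and 0.0775.

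Of 160 log2 fold changes of members under 16 alternatives, 139 kept their direction, and 21, none of them called, turned. Notch4 was 0.21 with limma-voom, 0.15 with the replicate block and 0.03 with the endothelial score. Jag2 was −0.18 with 1 surrogate variable and −0.12 with the mural score. Dll4 was 0.11 with the endothelial and 0.06 with the mural score. Leaving out 1 library gave −0.05 to 0.09 for Notch2, −0.54 to 0.23 for Notch4, −0.21 to 0.77 for Jag2, −0.37 to 0.23 for Dll4 and −0.07 to 0.08 for Hes1. The other 5 members did not turn in any alternative. The differences in share kept their direction under all alternatives run, but leaving out 1 library moved them from 0.215 to 3.71 points for Notch2 and from −5.0 to −0.613 for Jag1.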
